A study of Mus musculus with 6 samples.

Results

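The genes examined here are 42 genes of fatty acid oxidation, ketone body metabolism and the response to peroxisome proliferator-activated receptors (PPARs), the nuclear receptors that sense fatty acids. They were taken by gene symbol and fall into 7 roles, which are the carnitine shuttle (5 genes), mitochondrial beta-oxidation (13), peroxisomal oxidation (5), ketone bodies (3), fasting-induced PPAR targets (7), PPAR regulators (3), and fatty acid binding and activation (6). All 42 symbols were found among the 45777 genes listed, and all 42 had at least 1 read in each of the 6 samples, as did 22337 genes in all.

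RNA was sequenced from sorted astrocytes of male mice carrying Aldh1l1-CreERT2 and tdTomato fl/fl, in which tamoxifen turns on a red fluorescent protein where the astrocyte gene Aldh1l1 is active. Both groups received tamoxifen (75 mg/kg for 5 days), and the sample labels themselves give the genotype only as WT. At 8 weeks of age the mice received 1 injection of streptozotocin (STZ, 150 mg/kg), which destroys the insulin-producing beta cells, or citrate buffer alone (vehicle), after a fast in both groups. STZ mice entered the study only if their blood glucose was high, and brains were taken 21 days after the injection. Each sample pooled the tdTomato+ cells of 3 mice, with 3 samples per group. The reporter is driven by Aldh1l1 at the time of tamoxifen and not by cell type as such, and the sort did not use an astrocyte surface protein.

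Fatty acids are activated to acyl-CoA, carried into mitochondria as carnitine esters and shortened by repeated rounds of beta-oxidation, while very long and branched chains are first shortened in peroxisomes. Liver turns the resulting acetyl-CoA into ketone bodies during fasting or insulin lack, and other tissues, brain included, turn them back into acetyl-CoA. In brain, astrocytes are the main site of fatty acid oxidation. PPAR alpha, bound to DNA with a retinoid X receptor, raises many of these genes in fasted liver.

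Total counts were between 52529048 and 58749115 per sample, and 3 counts corresponded to 0.0511 to 0.0571 counts when scaled to library size (CPM). The 10 astrocyte markers summed to 6085 to 7071 FPKM (reads per transcript length and library size) in the vehicle samples and 6395 to 7018 FPKM in the STZ samples, so their sum was at a like level in both groups. Single astrocyte markers did differ: 1 was higher and 2 were lower in STZ samples at an unadjusted edgeR p under 0.05. Their log2 fold changes (STZ over vehicle) ran from -0.48 to 0.27. Markers of other cells were also present, and the choroid plexus sum was above the astrocyte sum in 5 of the 6 samples, all but vehicle sample 1. The 10 choroid plexus markers summed to 4370, 12336 and 13059 FPKM in vehicle samples 1 to 3 and to 8625, 7023 and 11931 FPKM in STZ samples 1 to 3. The highest of these markers alone had a mean of 9152 FPKM over the 6 samples, so this sum rested mostly on that gene. The sums are not shares of RNA by cell type. The 6 ependymal markers summed to 91.6 to 262 FPKM in the vehicle samples and 217 to 323 FPKM in the STZ samples. The 15 endothelial markers summed to 58.1, 87.2 and 201 FPKM in the vehicle samples against 335, 265 and 192 FPKM in the STZ samples, and the 10 pericyte and smooth muscle markers to 37.2 to 59.2 FPKM against 59.0 to 79.7 FPKM. Neuron markers (26.8 to 56.6 FPKM) and red blood cell markers (6.86 to 28.8 FPKM) were low throughout, while oligodendrocyte lineage markers were highest in vehicle sample 1 (763 FPKM) and STZ sample 1 (1124 FPKM). No list was at 0 in any sample. The neuronal gene Slc17a7 alone among the markers was at 0 in at least 1 sample. In such bulk samples a change in RNA per cell cannot be told apart from a change in the share of cells that express a gene.

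The 42 genes showed no common direction between STZ and vehicle samples. Of the 42 genes, 0 passed an adjusted p under 0.05 with a fold over 1.5 in edgeR's quasi-likelihood test, where 5 of 22337 genes passed (0.0224%). DESeq2 with the same limits also called 0 of the 42, against 234 genes in all (1.05%). The median log2 fold change (STZ over vehicle) was 0.00 over the 42 genes and 0.01 over all genes tested, with 21 genes above 0 and 21 below. At an unadjusted edgeR p under 0.05, 6 genes were higher and 6 were lower in STZ samples, 28.6% of the 42 against 11.3% of all genes. For all genes tested the share was 5.63% higher and 5.65% lower. Leaving out 1 sample moved these counts: 3 genes were higher without vehicle sample 3 and also without STZ sample 2, whereas 3 were lower without vehicle sample 1, without vehicle sample 3 and without STZ sample 1, and 2 without STZ sample 2.

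The 12 genes were unevenly spread over the roles. Of the 6 higher genes, 5 were fasting-induced PPAR targets (Angptl4, Plin2, Plin4, Acot1 and Acot2) and 1 was the peroxisomal isomerase Eci2. Of the 6 lower genes, 5 belonged to oxidation or ketone bodies (Slc22a5, Hadha, Acad11, Bdh1 and Oxct1) and 1 activates fatty acids (Acsl6). In 16 of the 42 genes the 3 STZ values lay wholly above (6 genes) or wholly below (10 genes) the 3 vehicle values. Among all genes this held for 18.5%, of which 8.64% were higher and 9.85% lower.

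**Figure D1:**
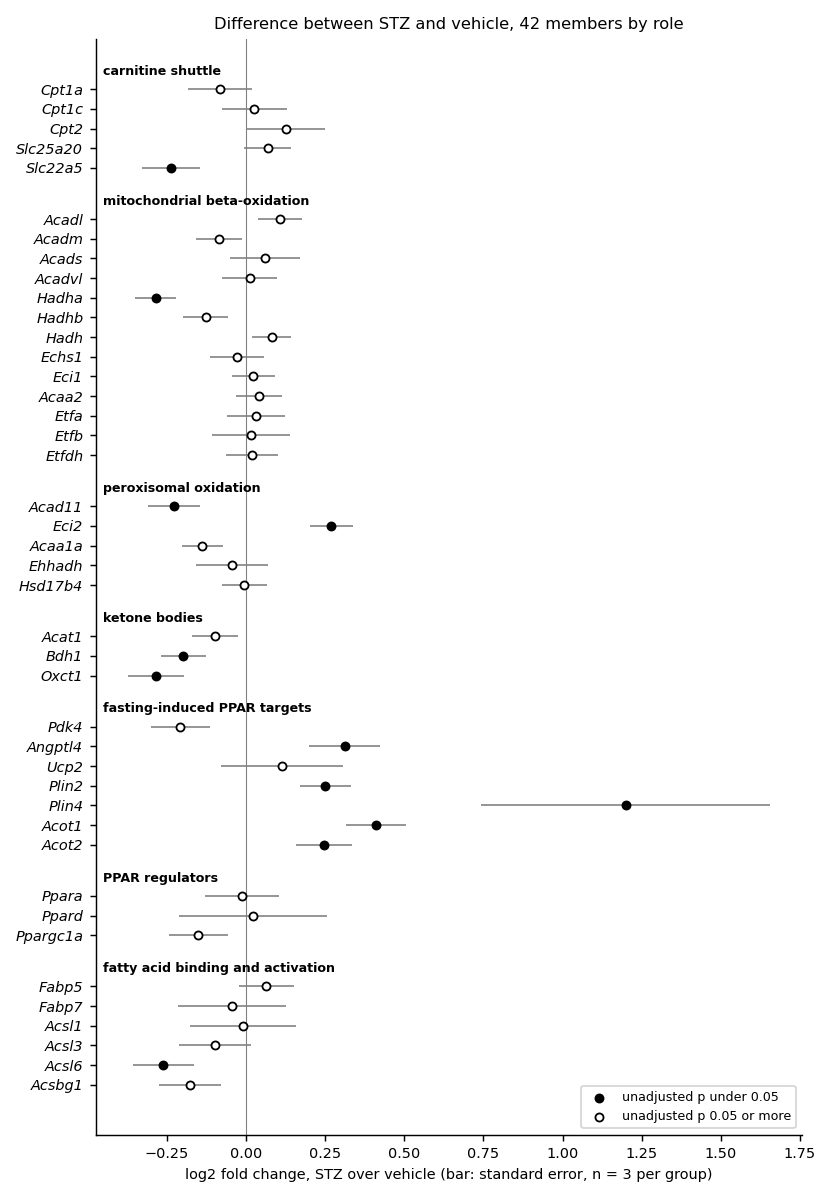
Log2 fold change of STZ over vehicle for each of the 42 genes, ordered by role (edgeR, n = 3 samples per group, bars are standard errors). Filled points mark an unadjusted p under 0.05: they lie to the right among the fasting-induced PPAR targets and to the left among the ketone body genes, and most other genes lie close to 0.

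The members differed widely in level. By the mean FPKM of the 6 samples, the highest were the acyl-CoA synthetases Acsbg1 (521 FPKM) and Acsl3 (459 FPKM), whose samples overlapped, followed by the electron transfer flavoprotein subunit Etfb (213 FPKM) and the fatty acid binding proteins Fabp7 (209.9 FPKM) and Fabp5 (209 FPKM). The lowest were the lipid droplet protein Plin4 (0.215 FPKM) and the receptor Ppard (0.322 FPKM), so Plin4 rested on 41 to 216 counts per sample. The other 35 genes lay between 3.31 FPKM (Acsl1) and 182 FPKM (Hadhb). Neighbours in this order were mostly closer than their spread over samples. Fabp7, for instance, had 209 ± 30.4 FPKM in vehicle and 211 ± 42.9 FPKM in STZ samples (SD, n = 3), and Fabp5 had 200.4 ± 13.9 and 218 ± 15.2 FPKM.

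**Figure D2:**
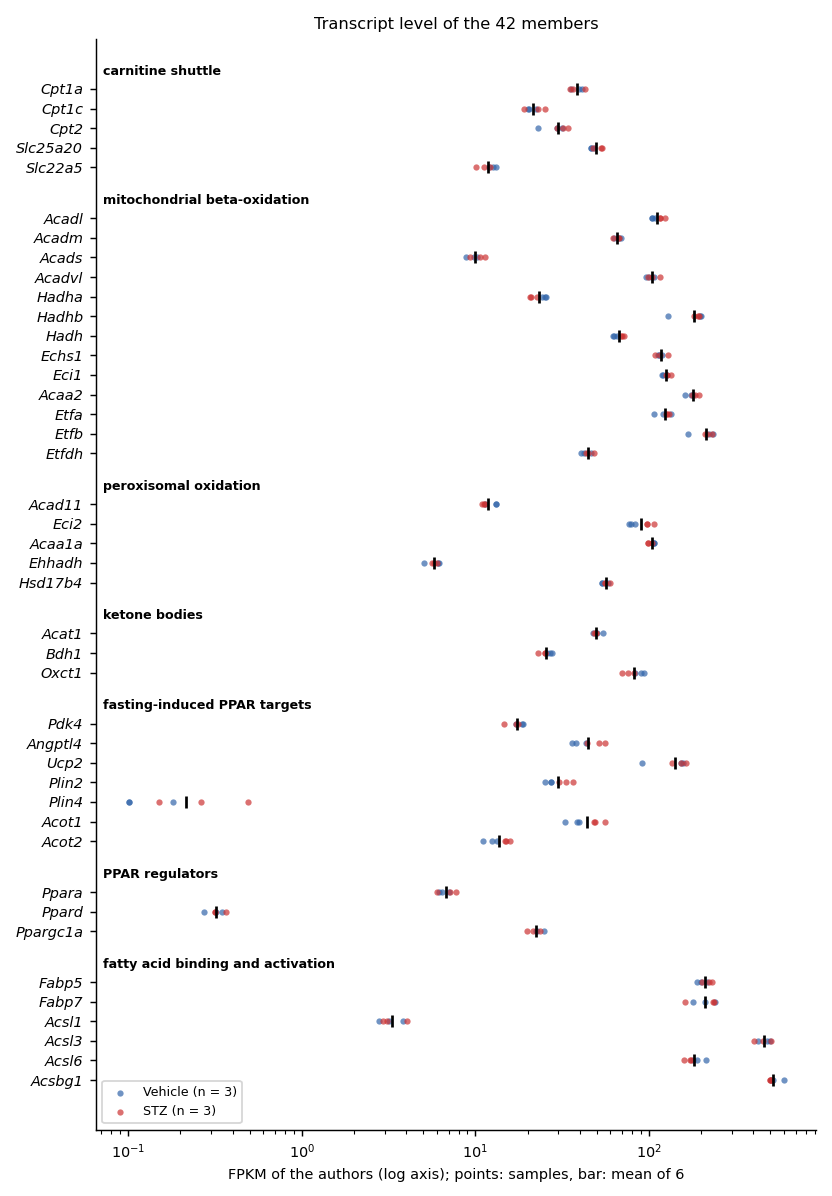
Level of each of the 42 genes as the FPKM of the authors on a log axis; points are the 3 vehicle and 3 STZ samples and the bar is the mean of the 6 samples. Levels run from 0.215 FPKM for Plin4 to 521 FPKM for Acsbg1, and vehicle and STZ points lie on top of each other for most genes.

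In the carnitine shuttle, Cpt1a, which forms acylcarnitine at the outer mitochondrial membrane and sets the pace of entry, was measured at 193, 166 and 185 normalized CPM in the vehicle samples and 163, 157 and 194 in the STZ samples (CPM after TMM scaling). The groups overlapped, with STZ sample 3 above every vehicle sample (log2 fold change -0.08, standard error 0.10, edgeR adjusted p = 0.796). Slc22a5, the plasma membrane carnitine transporter (chromosome 11, 53864542 to 53891796), had 44.5, 40.2 and 42.5 normalized CPM in vehicle and 35.8, 32.7 and 39.5 in STZ samples. It was lower in every STZ sample, although STZ sample 3 and vehicle sample 2 nearly met (log2 fold change -0.24, standard error 0.09, unadjusted p = 0.0336, adjusted p = 0.407). The brain isoform Cpt1c, the inner membrane transferase Cpt2 and the acylcarnitine carrier Slc25a20 overlapped between groups, with log2 fold changes of 0.03, 0.13 and 0.07. Cpt2 was lowest in vehicle sample 1 (59.1 normalized CPM against 72.2 to 84.8 in the other 5), and without that sample its log2 fold change was 0.00. Vehicle sample 1 had the lowest sums of choroid plexus, endothelial, pericyte and smooth muscle, ependymal and neuron markers. The part of these cells in the value was not tested.

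The 13 genes of mitochondrial beta-oxidation had log2 fold changes between -0.29 and 0.11 with standard errors of 0.06 to 0.12, and 9 of them were above 0. Hadha, the alpha subunit of the trifunctional protein, which carries out the last steps on long chains (chromosome 5, 30119423 to 30154980), was measured at 71.6, 74.0 and 74.9 normalized CPM in vehicle and 63.1, 59.1 and 58.8 in STZ samples. All 3 STZ samples were below all vehicle samples, with a difference of -17.9% between the fitted means (log2 fold change -0.29, standard error 0.06, unadjusted p = 0.00258, adjusted p = 0.253). Its unadjusted p stayed under 0.05 in all 6 fits that left out 1 sample, with log2 fold changes of -0.32 to -0.27. Hadhb, the beta subunit, is the next gene on the chromosome (30155253 to 30184593) and had 439, 444 and 443 normalized CPM in vehicle and 383, 412 and 418 in STZ samples. Its normalized CPM were also lower in every STZ sample, with a smaller difference (log2 fold change -0.13, standard error 0.07, adjusted p = 0.531). In the authors' length-scaled values the direction of Hadhb turned: vehicle sample 3 had 129 FPKM while the other 5 samples had 181 to 199 FPKM, and limma on log2(TPM + 1) gave 0.09.

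The acyl-CoA dehydrogenases, which start each round of beta-oxidation on chains of a given length, showed no common direction: Acadl 0.11, Acadm -0.08, Acads 0.06 and Acadvl 0.01 (log2 fold changes). Acadl, for long chains, was higher in every STZ sample (233, 234 and 253 normalized CPM against 220.1, 229.8 and 219), as was the hydroxyacyl-CoA dehydrogenase Hadh (133, 128 and 131 against 127, 122 and 121). Neither reached an unadjusted p of 0.05 in edgeR (0.16 and 0.226). The hydratase Echs1, the isomerase Eci1, the thiolase Acaa2 and the electron carriers Etfa, Etfb and Etfdh lay between -0.03 and 0.04 on the log2 scale with overlapping groups. Etfb had its lowest value in vehicle sample 1 (166 normalized CPM, the other 5 from 197 to 228), and Etfa likewise (169.6, the other 5 from 190.1 to 212). Reads of Etfdh and Echs1 may include reads of Ppid and Paox, which overlap them, since the counting was not stated to use strand.

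Among the peroxisomal genes, Eci2, which moves double bonds so that unsaturated fatty acids can be degraded (chromosome 13, 34977748 to 35027115), was measured at 171, 162 and 164 normalized CPM in vehicle and 191, 208 and 200.3 in STZ samples. It was higher in every STZ sample, by 20.5% (log2 fold change 0.27, standard error 0.07, unadjusted p = 0.00439, adjusted p = 0.283; DESeq2 adjusted p = 0.137, from 0.258 to 0.626 over the alternatives in edgeR and limma). Its unadjusted p stayed under 0.05 whichever sample was left out (log2 fold changes 0.24 to 0.30). Acad11, an acyl-CoA dehydrogenase that also handles hydroxylated acids (chromosome 9, 104063724 to 104127656), went the other way, with 41.4, 47.7 and 47.8 normalized CPM in vehicle and 38.6, 38.2 and 40.1 in STZ samples. All STZ samples were below vehicle sample 1, the lowest of its group (log2 fold change -0.23, standard error 0.08, unadjusted p = 0.0246, adjusted p = 0.387).

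The peroxisomal thiolase Acaa1a was lower in every STZ sample (183, 180.1 and 195 normalized CPM against 204, 206 and 204, log2 fold change -0.14, unadjusted p = 0.0694). Acaa1a shares 34.0% of its 50-base stretches with its near copy Acaa1b, so reads could be split between them, and with both summed before the fit the value was -0.14 as well. The bifunctional enzymes Ehhadh (-0.05) and Hsd17b4 (-0.01) overlapped between groups.

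Among the ketone body genes, Oxct1 and Bdh1, which act when ketone bodies are used, lay lower in every STZ sample. Oxct1, the transferase that commits acetoacetate to oxidation (chromosome 15, 4026428 to 4155344), had 316, 352 and 339 normalized CPM in vehicle and 252, 275 and 300.5 in STZ samples. The STZ samples lay below the vehicle samples with a gap between 300.5 and 316 (log2 fold change -0.28, standard error 0.09, unadjusted p = 0.0136, adjusted p = 0.338). Leaving out any 1 sample kept its unadjusted p under 0.05 (log2 fold changes -0.35 to -0.22). Bdh1, which interconverts acetoacetate and beta-hydroxybutyrate (chromosome 16, 31422297 to 31458901), had 94.1, 91.0 and 87.9 normalized CPM in vehicle and 81.0, 74.1 and 82.8 in STZ samples. Its groups did not overlap either (log2 fold change -0.20, standard error 0.07, unadjusted p = 0.0247, adjusted p = 0.387), and with 1 sample left out the unadjusted p was under 0.05 in 3 of 6 fits. Acat1, the thiolase that acts in both synthesis and use, overlapped between groups (log2 fold change -0.10, unadjusted p = 0.217).

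**Figure D3:**
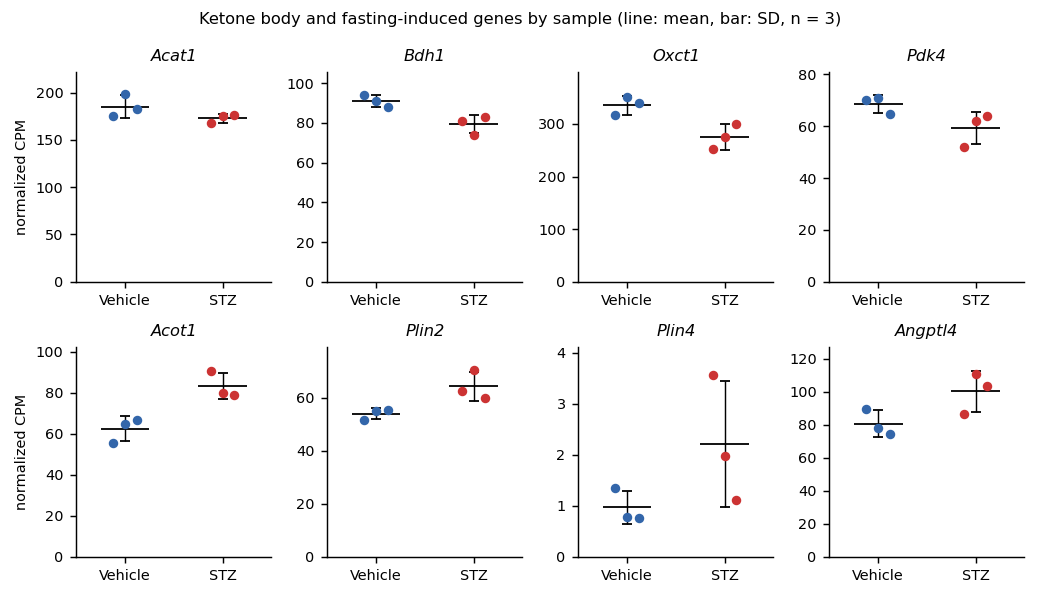
Normalized CPM of ketone body genes and fasting-induced PPAR targets in each sample (points in replicate order, line the mean, bar the SD, n = 3 per group, axes from 0). Acot1 and Plin2 were higher in every STZ sample, Bdh1, Oxct1 and Pdk4 lower in every one, and Acat1, Angptl4 and Plin4 overlapped.

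The 7 fasting-induced PPAR targets had the highest median of the 7 roles (log2 fold change 0.25), with 6 genes above 0 and Pdk4 below, and 5 at an unadjusted p under 0.05 without passing adjustment. Acot1, a cytosolic thioesterase that frees fatty acids from acyl-CoA (chromosome 12, 84009502 to 84017670), was measured at 55.7, 64.8 and 66.9 normalized CPM in vehicle and 90.4, 79.8 and 79.0 in STZ samples. The lowest STZ sample was well above the highest vehicle sample, and the fitted mean was 1.33-fold higher (log2 fold change 0.41, standard error 0.09, unadjusted p = 0.00285, adjusted p = 0.258). It was the only one of the 42 genes with an adjusted p under 0.05 in DESeq2 (0.0383), a threshold without the fold limit that was chosen after seeing the data and that 1.71% of all genes passed, while its adjusted p lay between 0.22 and 0.60 over the 14 alternatives in edgeR and limma. Acot2, its mitochondrial neighbour (chromosome 12, 83987861 to 83993877), had 26.7, 31.9 and 29.7 normalized CPM in vehicle and 36.1, 34.2 and 34.3 in STZ samples. Its groups did not overlap (log2 fold change 0.25, standard error 0.09, unadjusted p = 0.0255, adjusted p = 0.389). The longest Acot1 transcript shares 23.7% of its 50-base stretches with Acot2, so how reads were divided is uncertain, and the summed counts gave a log2 fold change of 0.36.

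The lipid droplet coat proteins Plin2 and Plin4 differed in level and in how far the samples held together. Plin2, the main perilipin of cells other than fat cells, had 51.6, 55.1 and 55.3 normalized CPM in vehicle and 62.4, 70.3 and 59.9 in STZ samples. No STZ sample reached down to the vehicle range (log2 fold change 0.25, standard error 0.08, unadjusted p = 0.0161, adjusted p = 0.349). The unadjusted p stayed under 0.05 in 5 of the 6 fits that left out 1 sample. The exception was the fit without STZ sample 2, where the log2 fold change was 0.18. Plin4 had 1.34, 0.790 and 0.768 normalized CPM in vehicle and 3.56, 1.98 and 1.12 in STZ samples. STZ sample 3 lay below vehicle sample 1, so the groups overlapped, and STZ sample 1 decided the size: the log2 fold change was 1.20 with it and 0.68 without it (standard error 0.46, unadjusted p = 0.0317, adjusted p = 0.402 with all samples). Plin4 overlaps Hdgfl2, and its counts were few.

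Promoter sequences were searched for a match, given as a description, since PPAR alpha and a retinoid X receptor bind to a pair of direct AGGTCA repeats with 1 base between them, called DR1. The RefSeq promoter windows of GRCm38.p6 (250 bases before to 50 after a start) covered 37 of the 42 genes with 41 windows. Searched on both strands, the exact DR1 stood in 0.0396% of 32851 windows and in 0 of the 41. With 1 mismatch allowed it stood in 0.554% of all windows and again in 0 of the 41. With 2 mismatches, a limit added after seeing the data, 3.86% of all windows and 4 of the 41 held a match. These were in Plin2, Echs1, Etfa and Slc25a20, and among them only Plin2 differed between groups at an unadjusted p under 0.05. A glucocorticoid response element (AGAACA and TGTTCT with 3 bases between them) stood in 0.164% of all windows with 1 mismatch allowed and in 0 of the 41. With 2 mismatches it stood in 1.84% of all windows and again in 0 of the 41. The outer stretch of the Plin2 window, upstream of every Plin2 start in RefSeq and shown with the match in capitals, lies at chr4:86670218-86670309 on the minus strand, 250 to 159 bases before the start used in the table.
Plin2: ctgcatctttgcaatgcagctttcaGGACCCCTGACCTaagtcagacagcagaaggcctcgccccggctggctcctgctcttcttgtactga
The match of Plin2 reads on the strand opposite to the gene. The other 3 matches, in capitals throughout and written on the strand of their gene, lie at chr7:140116492-140116504 (minus strand), chr9:55512308-55512320 (minus strand) and chr9:108662142-108662154 (plus strand), and are shown so that they can be compared with the repeat.
Echs1: AGGTCACGGGTCC
Etfa: TTACCTTTGCCCT
Slc25a20: AGGTGAAAGGTCG

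Angptl4, a secreted inhibitor of lipoprotein lipase (chromosome 17, 33774900 to 33781575), had 89.6, 78.1 and 74.3 normalized CPM in vehicle and 86.5, 110.5 and 103 in STZ samples. STZ sample 1 was below vehicle sample 1, and the other 2 STZ samples were above all vehicle samples (log2 fold change 0.31, standard error 0.11, unadjusted p = 0.0254, adjusted p = 0.389). Pdk4, the kinase that shuts pyruvate out of oxidation when fat is burned (chromosome 6, 5483351 to 5496278), had 69.9, 70.8 and 64.6 normalized CPM in vehicle and 52.1, 61.8 and 63.9 in STZ samples. It lay below vehicle in every STZ sample, narrowly in STZ sample 3 (log2 fold change -0.21, standard error 0.09, unadjusted p = 0.0584, adjusted p = 0.462), and without STZ sample 1 the value was -0.12. Pdk4 was thus the one gene of this role with a negative difference. Ucp2, an inner membrane carrier (chromosome 7, 100493337 to 100499629), had 158, 267 and 260.3 normalized CPM in vehicle and 264, 221 and 256 in STZ samples. Vehicle sample 1 stood apart from the other 5, and without it the log2 fold change turned from 0.11 to -0.10. That sample had the lowest sums of choroid plexus, endothelial, pericyte and smooth muscle, ependymal and neuron markers. The part of RNA from these other cells in the Ucp2 value was not tested.

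**Figure D4:**
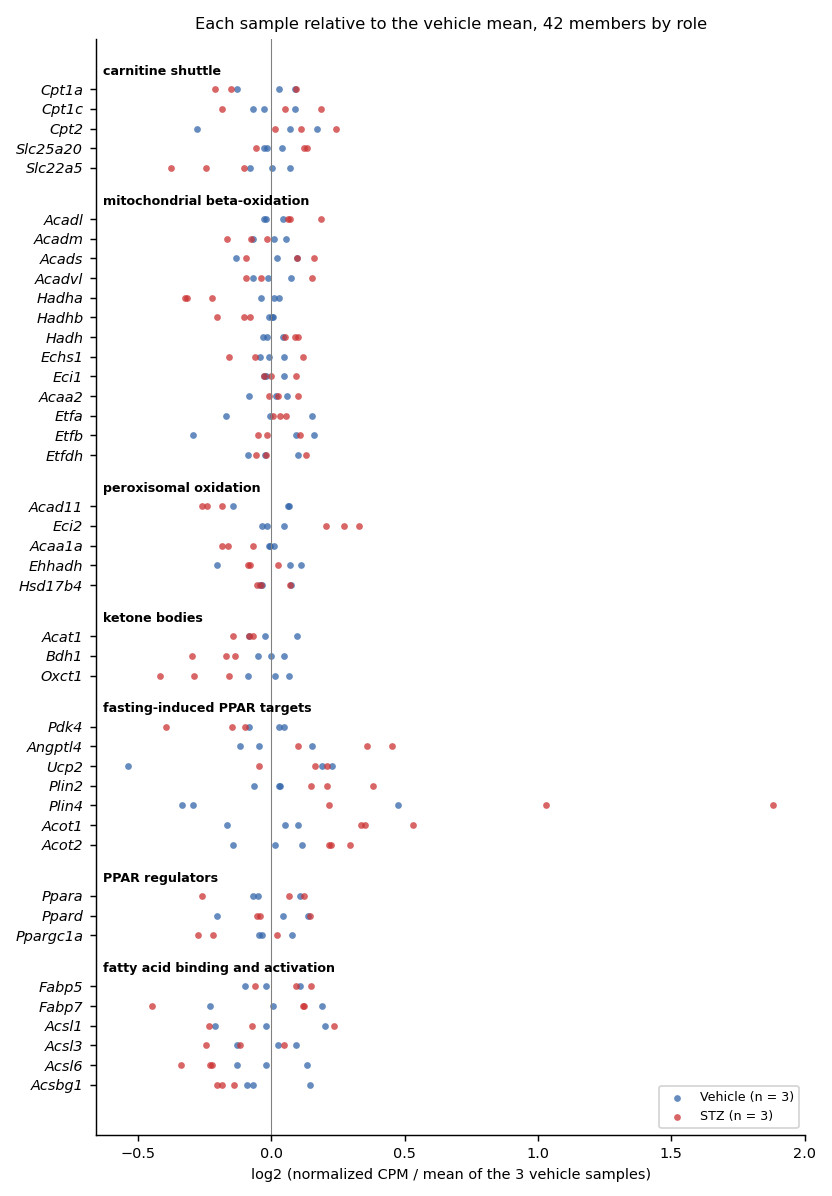
Each of the 3 vehicle and 3 STZ samples as the log2 ratio of its normalized CPM to the mean of the 3 vehicle samples, for the 42 genes by role. Red STZ points lie right of every blue vehicle point for Acot1, Acot2, Plin2, Eci2, Acadl and Hadh, and left of every vehicle point for 10 genes, among them Hadha, Oxct1, Bdh1 and Pdk4.

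Of the PPAR regulators, the alpha receptor Ppara (chromosome 15, 85734910 to 85806851) had 30.1, 26.7 and 27.1 normalized CPM in vehicle and 23.4, 30.5 and 29.3 in STZ samples. The groups overlapped completely, with the lowest and the highest of the 6 values both in STZ samples (log2 fold change -0.01, standard error 0.12, adjusted p = 0.975). Ppard, the delta receptor, was near 1 normalized CPM in all samples (0.960 to 1.22, log2 fold change 0.02, standard error 0.23). Ppargc1a, a coactivator of oxidative metabolism, differed by -0.15 on the log2 scale (standard error 0.09, unadjusted p = 0.149) with overlapping groups. At the spread of these samples a change of Ppard transcript as large as its standard error could not have been seen, and a larger one could have been missed.

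Among the genes of fatty acid binding and activation, Acsl6, an acyl-CoA synthetase that favours polyunsaturated chains such as docosahexaenoic acid (chromosome 11, 54303805 to 54364756), had 1345, 1123 and 1209 normalized CPM in vehicle and 969, 1052 and 1046 in STZ samples. Every STZ sample was below every vehicle sample (log2 fold change -0.26, standard error 0.10, unadjusted p = 0.0283, adjusted p = 0.396), and with 1 sample left out the unadjusted p was under 0.05 in 2 of 6 fits. Acsbg1, a synthetase of very long chains, had 1822, 1548 and 1569 against 1428, 1449.5 and 1493 normalized CPM, with no overlap but an unadjusted p of 0.11. Fabp7, the brain fatty acid binding protein (chromosome 10, 57784923 to 57788450), had 174, 197 and 147 normalized CPM in vehicle and 127, 188 and 188 in STZ samples. It varied more between samples of a group than between groups (log2 fold change -0.04, standard error 0.17), and its sign turned without STZ sample 1 (0.12). Fabp5 (0.06), Acsl1 (-0.01) and Acsl3 (-0.10) overlapped between groups.

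Further genes of the same or related pathways were read out of the same fit, and 0 of them passed the adjusted threshold in edgeR. The genes DESeq2 called included the PPAR target Txnip, and in the synthesis and glucocorticoid lists Scd1 and 5 glucocorticoid-induced genes, among them Fkbp5, Nfkbia and Sult1a1. A further list of 20 genes tested mixed beta-oxidation enzymes with related ones, such as those of propionate and leucine breakdown. Of these 20, 0 were higher and 6 lower at an unadjusted p under 0.05 (median log2 fold change -0.12). The smallest p among them belonged to Mmut, which passes propionate into the citric acid cycle (127, 129 and 133 normalized CPM in vehicle, 101, 107 and 118 in STZ samples, unadjusted p = 0.0127), to Acad9, an assembly factor of respiratory complex I (-0.20), and to Ivd of leucine breakdown (-0.18). All 3 were lower in every STZ sample. Of 17 other peroxisomal genes, 2 were higher and 0 lower, a share (11.8%) near the 11.3% of all genes tested, namely the reductase Pecr (log2 fold change 0.37) and the peroxisome division factor Pex11a (0.23). Of 9 other ketone body genes, 3 were higher and 2 lower, and the higher ones included Bdh2, a cytosolic dehydrogenase (13.7, 17.3 and 19.5 normalized CPM in vehicle, 25.5, 24.5 and 22.1 in STZ samples, log2 fold change 0.51, unadjusted p = 0.00726, adjusted p = 0.302).

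Of 25 other PPAR target genes, 5 were higher and 0 lower at an unadjusted p under 0.05, with a median log2 fold change of 0.11. These included Pnpla2, the lipase that opens lipid droplets, with 116, 119.9 and 128 normalized CPM in vehicle and 155, 152 and 143 in STZ samples. No STZ sample overlapped the vehicle samples (log2 fold change 0.31, standard error 0.07, unadjusted p = 0.00287, adjusted p = 0.258). Retsat, a retinol saturase, showed the same order of groups (145, 136 and 148 against 201, 169.9 and 167, log2 fold change 0.32). Another 9 genes of that list, such as Cyp4a10, Cyp4a14 and Fgf21, had no reads in at least 1 sample and were not tested. Of 19 other PPAR partners and coregulators, 0 were higher and 2 lower, a share (10.5%) near the 11.3% of all genes tested, and Esrra (-0.29), a receptor of oxidative metabolism, was among the 2.

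Of 15 other genes of fatty acid uptake and activation, 1 was higher and 4 lower. The higher one was Dbi, the acyl-CoA binding protein, with 497, 558 and 600.0 normalized CPM in vehicle and 734, 758 and 731 in STZ samples. The groups were far apart relative to their spread, but the fold was 1.34, under the limit (unadjusted p = 0.00177, edgeR adjusted p = 0.227, DESeq2 adjusted p = 0.00645, from 0.162 to 0.599 over the alternatives in edgeR and limma). Acss2, which activates acetate, had 239, 223 and 209 normalized CPM in vehicle and 142, 177 and 173 in STZ samples (log2 fold change -0.45, standard error 0.10, unadjusted p = 0.00261). Acbd5, a peroxisomal tether that binds acyl-CoA, was lower as well (-0.18).

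A pair of response lists was set beside the 42 genes. Of 19 fatty acid synthesis genes, 0 were higher and 7 lower at an unadjusted p under 0.05, and 18 had a negative log2 fold change (median -0.17). Scd1, the delta-9 desaturase, had 121, 99.0 and 98.0 normalized CPM in vehicle and 68.6, 69.8 and 68.0 in STZ samples (log2 fold change -0.62, standard error 0.09, edgeR adjusted p = 0.157, DESeq2 adjusted p = 0.000125, from 0.099 to 0.586 over the alternatives in edgeR and limma). Acly (-0.42) and Scd2 (-0.46) were also lower in every STZ sample. Of 18 genes induced by glucocorticoids, 11 were higher and 0 lower, and all 18 had a positive log2 fold change (median 0.37). Fkbp5, a sensitive glucocorticoid target, had 4.25, 4.47 and 6.37 normalized CPM in vehicle and 26.1, 19.7 and 10.8 in STZ samples. Plin4 and Acot1 had the same order over the STZ samples, whereas Angptl4 and Pdk4 had their lowest STZ value in STZ sample 1, where Fkbp5 was highest. The endothelial sum had the order of Fkbp5 as well (335, 265 and 192 FPKM in the STZ samples), so this order cannot tell them apart. Glucocorticoids also raise Angptl4, Pdk4 and several other PPAR targets, and their part in the values above was not tested.

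Of the 15 endothelial markers, 12 were higher in STZ samples at an unadjusted p under 0.05 (median log2 fold change 1.10). Within the STZ samples, Plin4 and Acot1 had their highest value in STZ sample 1, which also had the highest endothelial sum, and their lowest in STZ sample 3. Eci2 did not have this order, with 191 normalized CPM in STZ sample 1 against 208 and 200.3 in the other STZ samples. Over the vehicle samples the endothelial sum rose from 58.1 to 201 FPKM. Plin4 fell over them from 1.34 to 0.768 normalized CPM, whereas Acot1 rose from 55.7 to 66.9. The part of endothelial RNA in the differences was not tested.

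**Figure D5:**
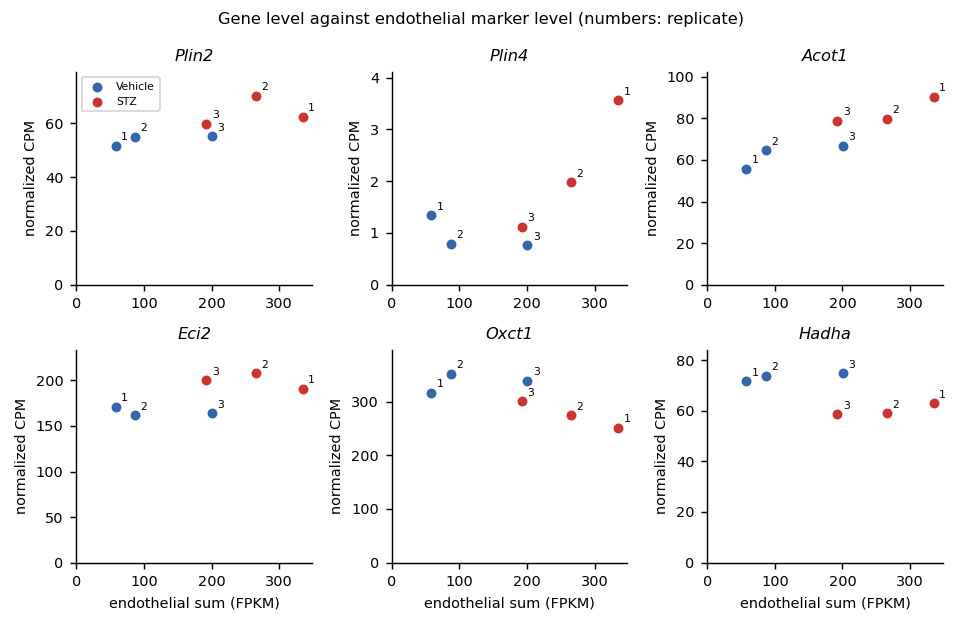
Normalized CPM of 6 genes against the summed FPKM of 15 endothelial markers, 1 point per sample with its replicate number (both axes from 0). Plin4 and Acot1 are highest in STZ sample 1, which has the highest endothelial sum (335 FPKM), and Oxct1 is lowest there, while the vehicle and STZ sums meet only at replicate 3 of each group (201 and 192 FPKM). Among the vehicle points, Plin4 is lowest and Acot1 is highest at replicate 3, which has the highest vehicle sum.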

How the data were processed

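The authors trimmed reads, aligned them to mm10 and quantified genes with StringTie. The submitters' processing notes name bcl2fastq 2.20.0, Trimmomatic 0.38, HISAT2 2.1.0, SAMtools 1.9 and StringTie 2.1.3b. The deposited table lists RefSeq accessions, and the annotation release and the use of strand are not given in the sources used here. The deposited read counts are whole numbers per gene without normalization. The FPKM and TPM values deposited by the authors are scaled to transcript length and library size. The labels name a SMART-Seq mRNA kit for the libraries, whereas the methods name a TruSeq and a SMART-Seq kit. The methods also remove outlier genes without saying how, and that removal was left out.

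Groups and replicate numbers came from the sample titles and treatment labels. Counts of the 22337 genes above 0 in all 6 samples entered a two-sided quasi-likelihood test of group (edgeR 4.0.16, R 4.3.3) after TMM scaling, with Benjamini-Hochberg adjustment over all of them. A call needed an adjusted p under 0.05 and a fold over 1.5. Levels between genes were compared as FPKM and differences as normalized CPM. Samples are separate pools of mice, so p-values measure the spread between pools. The alternatives were DESeq2 1.42.0, DESeq2 size factors in edgeR, other filters on low counts, a replicate block, robust fitting, limma 3.58.1 on log2(TPM + 1) and log2(TPM + 0.1), no fold limit, summed counts of near copies, and leaving out each sample. The fit was tested on simulated data. Positions and promoter windows came from RefSeq on GRCm38, and shared transcript stretches from GENCODE M21. Tables and figures used Python 3.11.15, pandas 2.3.3, numpy 2.4.6 and matplotlib 3.10.9.

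The 42 genes, their roles, the further gene lists and the tests were chosen with earlier results of these data known. All 6 values are given for each of the 42 genes at an unadjusted p under 0.05 and always for Cpt1a, Pdk4, Angptl4, Ucp2, Plin2, Ppara, Hadha and Fabp7. Of each further list at most 3 genes with the smallest p were named, with Fkbp5 always, and some genes that this rule names are not reported here. Other genes given with all their values, such as Hadhb, Acadl, Hadh, Acaa1a and Acsbg1, and Txnip, which DESeq2 called, were picked after their values were seen. The floor of 3 counts covers counting error only, whereas the standard errors come from the fit and include the spread between pools.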

Additional observations from a re-analysis of the deposited data

How the results depend on the processing

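Genes called numbered 5 in edgeR, 234 with DESeq2, 383 with DESeq2 without the fold limit (chosen after seeing the data), 10 with robust fitting, 0 with limma on log2(TPM + 1), 0 with limma on log2(TPM + 0.1), and 0 to 1 with 1 sample left out. Of the 42 genes, 0 were called, and 1 (Acot1) with DESeq2 without the fold limit. With the replicate block 0 genes were called in all, 0 of them among the 42, and 4 of the 42 were higher and 4 lower at an unadjusted p under 0.05. The replicate numbers showed no sign of pairing: deviations of same-numbered samples correlated at -0.101, -0.162 and -0.184, and no sample correlated best with its own number. Deviations from a mean of 3 samples are tied together, so these values cannot show that samples were not handled in pairs.

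With 1 sample left out, 3 to 5 of the 42 genes were higher and 2 to 9 lower at an unadjusted p under 0.05. Median log2 fold changes then ranged from -0.0493 to 0.0426 for the carnitine shuttle, from -0.151 to 0.0109 for peroxisomal oxidation and from -0.153 to -0.0762 for binding and activation, and the cause was not tested. Outside such fits, 332 values of the 42 genes kept their direction and side of the threshold and 6 turned, all in limma on TPM: Hadhb (0.0938 and 0.0941), Hsd17b4 (0.00662 and 0.00668) and Ppara (0.0415 and 0.0435). With 1 sample left out, 223 kept them and 29 turned, in 16 genes whose main value was near 0. The log2 fold changes of these 16 ranged from -0.0606 to 0.121 for Cpt1c, -0.0157 to 0.129 for Acads, -0.0656 to 0.0614 for Acadvl, -0.109 to 0.0313 for Echs1, -0.0135 to 0.0476 for Eci1, -0.00247 to 0.065 for Acaa2, -0.0478 to 0.104 for Etfa, -0.115 to 0.0921 for Etfb, -0.0387 to 0.0616 for Etfdh, -0.151 to 0.0109 for Ehhadh, -0.0443 to 0.0301 for Hsd17b4, -0.0972 to 0.232 for Ucp2, -0.0863 to 0.096 for Ppara, -0.0836 to 0.0811 for Ppard, -0.159 to 0.122 for Fabp7 and -0.15 to 0.0915 for Acsl1. The median log2 fold change of all genes lay between 0.000535 and 0.0295 under these settings. With 3 pools per group, standard errors of 0.06 to 0.46 on the log2 scale limit what could be seen in the 42 genes.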
